A study of Homo sapiens with 6 samples.

Results

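The HLA class I and antigen presentation genes described here were 9 genes chosen by symbol, namely HLA-B, HLA-C, HLA-E, B2M, TAP1, TAP2, TAPBP, PSMB8 and PSMB9, out of 42495 gene rows with expression values. The rule used no measured value, and all 9 passed the filter on low values. They were measured by RNA sequencing in Panc-1, an established human pancreatic ductal adenocarcinoma cell line. The CAFR-CM group was 3 libraries of Panc-1 cells kept for 72 h in medium conditioned by cancer-associated fibroblasts (CAFs) of the line CAFR1, from a tumor resistant to platinum-based chemotherapy, and the CAFS-CM group was 3 libraries kept in medium of the line CAFS1, from a chemosensitive tumor. No library was sequenced from cells in normal medium, so CAFR-CM was compared with CAFS-CM and not with an untreated state. Each group used medium of 1 CAF line, so CAF line and group cannot be told apart. The study describes the libraries of each group as biological replicates, while the labels do not say whether they came from separate cultures or batches of medium, and each p-value reflects only how much these libraries vary.

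HLA class I molecules display peptides from inside the cell to CD8+ T cells and to natural killer cell receptors. The proteasome cuts proteins into peptides, the TAP1 and TAP2 transporter carries the peptides into the endoplasmic reticulum, and tapasin, the product of TAPBP, helps load them onto a heavy chain paired with beta-2 microglobulin. PSMB8 and PSMB9 are catalytic subunits that replace their constitutive counterparts in the immunoproteasome. Interferons induce many genes of this pathway, NF-κB acts on several of them, and low class I expression is a known route by which tumor cells escape T cells.

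Values were FPKM, fragments scaled to transcript length and to the mapped fragments of the library, which the authors estimated with RSEM. Library depth was not given in the files used here, so no counting interval was computed. FPKM summed to 666560 to 701406 in CAFR-CM libraries and 660604 to 691568 in CAFS-CM libraries. More genes exceeded 0.1 FPKM in every CAFR-CM library, 23775 to 24166, against 22656 to 22936 in CAFS-CM libraries. The epithelial keratins KRT8 and KRT18 were high in all 6 libraries, with KRT8 at 3057 to 3116 FPKM in CAFR-CM and 3413 to 3744 FPKM in CAFS-CM. Keratin KRT7 was low, at 4.63 to 5.08 FPKM in CAFR-CM and 5.41 to 6.27 FPKM in CAFS-CM. The leukocyte marker PTPRC was at 0.01 FPKM or less. By the limma test described below, 15.1% of all genes tested were higher in CAFR-CM than in CAFS-CM and 11.1% were lower. Counts of cell type markers stand beside these shares. Of 12 fibroblast markers, 6 were tested, 3 were higher (COL1A1, COL6A1 and COL6A2) and 0 were lower. Their summed level was 73.3 to 79.0 FPKM in CAFR-CM and 53.4 to 58.9 FPKM in CAFS-CM. The fibroblast marker FAP was listed at 0 in all libraries and COL1A2 at 0.02 FPKM or less. PDGFRA was 0.01 to 0.07 FPKM in CAFR-CM and 0 in CAFS-CM. LUM was 0.07 to 0.16 FPKM in CAFR-CM and 0.02 to 0.04 FPKM in CAFS-CM. PDGFRA and LUM were too low to test. The groups overlapped in DCN and PDGFRB, also too low to test, and in COL3A1, THY1 and POSTN. COL3A1, THY1 and POSTN were tested and not called, with log2 fold changes of 0.19, -0.08 and 0.005 in that order. Every CAFR-CM library was above every CAFS-CM library in 5 of the 12 markers, and below in 0. The 5 include the untested LUM and PDGFRA, while the shares given next are over tested genes only. Among all genes tested, 26.4% were separated upward and 16.8% downward. COL6A2 was no longer called without CAFS-CM replicate 1 or 2 (adjusted p = 0.0559 and 0.0572). Of 8 leukocyte markers, 5 were tested and 1, CD8A, was higher, at 0.62 to 0.89 FPKM in CAFR-CM and 0.25 to 0.39 FPKM in CAFS-CM, and of 5 endothelial markers 2 were tested and 1, KDR, was higher. CD8A was no longer called without CAFS-CM replicate 1 or 2, where the leukocyte count was 0, and the count was 2 without CAFR-CM replicate 2. KDR was called with all libraries and without CAFR-CM replicate 2, and was not called without any other single library. Summed leukocyte markers were 37.9 to 43.7 FPKM in CAFR-CM and 34.7 to 37.8 FPKM in CAFS-CM. Most of that sum was CD68, which was not called. CD68 was 34.3 to 39.3 FPKM in CAFR-CM and 31.6 to 34.6 FPKM in CAFS-CM. Of 7 epithelial markers, 3 were higher (EPCAM, CDH1 and MUC1) and 2 were lower (KRT18 and KRT19), and the summed level was 5009 to 5220 FPKM in CAFR-CM and 5941 to 6184 FPKM in CAFS-CM. Without CAFS-CM replicate 1 or 2 the number lower was 1, and without CAFS-CM replicate 3 it was 0. The part of these markers in the differences below was not tested.

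The stretch of DNA just upstream of class I genes carries many of the elements that regulate them, so promoter windows were taken from RefSeq (GRCh38.p14), each 250 bases before to 50 bases after a start site. Windows were found for 8 of the 9 genes, 10 windows in all, with 2 each for TAP1 and PSMB8. HLA-B, PSMB9 and HLA-C are shown because they had the largest differences, and TAP1 and TAP2 because they encode the partner subunits of 1 transporter and differed in their change. Capitals mark every match, on either strand, to GGG and TTCC separated by 2 or 3 bases (NF-κB-type letters), GAAA and GAAA separated by 2 bases (interferon response element letters), GAANNGAAA (a shorter form of them), TTCNNNGAA (gamma-activated site letters) and CCAAT (the CCAAT box). Overlapping matches run together.
HLA-B, chr6:31357130-31357429, minus strand: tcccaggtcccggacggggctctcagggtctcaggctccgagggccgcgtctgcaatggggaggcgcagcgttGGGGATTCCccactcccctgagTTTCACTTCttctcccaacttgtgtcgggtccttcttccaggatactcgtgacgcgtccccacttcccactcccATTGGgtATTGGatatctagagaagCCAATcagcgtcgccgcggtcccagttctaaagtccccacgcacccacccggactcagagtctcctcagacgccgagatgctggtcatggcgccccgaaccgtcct
PSMB9, chr6:32853942-32854241, plus strand: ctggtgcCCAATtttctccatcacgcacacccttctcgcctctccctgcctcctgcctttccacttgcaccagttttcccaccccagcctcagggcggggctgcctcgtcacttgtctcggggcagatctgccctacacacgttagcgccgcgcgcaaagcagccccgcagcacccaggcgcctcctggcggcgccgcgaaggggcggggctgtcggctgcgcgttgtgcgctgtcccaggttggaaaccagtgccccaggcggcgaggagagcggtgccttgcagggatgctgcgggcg
HLA-C, chr6:31272043-31272342, minus strand: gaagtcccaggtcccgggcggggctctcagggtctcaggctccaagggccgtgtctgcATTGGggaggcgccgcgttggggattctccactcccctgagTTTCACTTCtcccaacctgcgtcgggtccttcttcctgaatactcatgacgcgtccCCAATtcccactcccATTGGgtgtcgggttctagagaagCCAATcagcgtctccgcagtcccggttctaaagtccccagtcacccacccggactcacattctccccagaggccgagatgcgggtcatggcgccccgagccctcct
TAP1, chr6:32853655-32853954, minus strand: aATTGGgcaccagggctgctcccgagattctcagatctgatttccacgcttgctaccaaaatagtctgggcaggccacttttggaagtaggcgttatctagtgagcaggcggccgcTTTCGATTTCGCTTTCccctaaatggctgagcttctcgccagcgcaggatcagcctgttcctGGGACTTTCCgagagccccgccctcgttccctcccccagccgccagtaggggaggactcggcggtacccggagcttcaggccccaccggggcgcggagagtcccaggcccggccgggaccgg
TAP2, chr6:32838690-32838989, minus strand: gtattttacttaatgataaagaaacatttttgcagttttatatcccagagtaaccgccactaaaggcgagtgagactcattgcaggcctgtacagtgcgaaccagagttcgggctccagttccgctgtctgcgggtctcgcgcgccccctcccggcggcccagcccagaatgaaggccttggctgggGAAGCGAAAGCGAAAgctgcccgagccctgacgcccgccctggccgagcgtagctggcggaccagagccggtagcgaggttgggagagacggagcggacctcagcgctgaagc

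The HLA-B window held GGGGATTCC, an NF-κB-type match, at bases -177 to -169 from the start site, and TTTCACTTC, a match to the shorter interferon pattern on the other strand, at bases -155 to -147. HLA-C carried the same TTTCACTTC at bases -151 to -143, with no NF-κB-type match. The printed TAP1 window held overlapping interferon-type matches at bases -134 to -125 and -128 to -119, and GGGACTTTCC at bases -72 to -63. TAP2 held overlapping interferon-type matches at bases -63 to -55 and -58 to -49, and the PSMB9 window held CCAAT only. In the windows not shown, TAPBP held GGGGATTTCC at bases -56 to -47 and interferon-type matches at bases -20 to -11 and -14 to -5, B2M held interferon-type matches at bases -144 to -135 and -138 to -129 with GGAAAGTCCC at bases -125 to -116, and the second PSMB8 window held TTTCGCTTTC across its start site, at bases -4 to 6. Counted over windows, the longer interferon pattern was in 5 of the 10 and in 3.57% of 35116 RefSeq promoter windows, GAANNGAAA in 4 and 7.66%, the NF-κB-type pattern in 4 and 6.58% with a gap of 2 bases and in 3 and 6.52% with a gap of 3, TTCNNNGAA in 2 and 7.66%, and CCAAT in 5 and 34.6%. The printed TAP1 and PSMB9 windows overlap, and their CCAAT matches are the same bases read on opposite strands, counted once for each window. The patterns were chosen with the expression values known, and a match is a description of letters and not of a bound site.

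Of the 9 genes, 8 were higher in CAFR-CM than in CAFS-CM and 0 were lower, while TAP2 did not pass the test (limma on log2(FPKM + 1), Benjamini-Hochberg adjusted over 23608 genes). Among all genes tested, 15.1% were higher and 11.1% were lower, 26.2% in either direction. Among the 14828 genes with a mean of at least 1 FPKM, as all 9 have, 21.9% were higher and 19.1% were lower. The median log2 fold change was 0.52 over the 9 genes and 0.06 over all genes tested. In each of the 9 genes, TAP2 included, every CAFR-CM library was above every CAFS-CM library, a separation found in 26.4% of all genes tested, while the opposite separation was found in 16.8%. Differences were uneven along the pathway, from a log2 fold change of 2.11 for HLA-B down to 0.10 for TAP2. Summed over the 9 genes, FPKM was 722.5 to 758.0 in CAFR-CM and 512.9 to 529.1 in CAFS-CM. In RNA from whole cultures, a change in the share of cells that express a gene and a change in RNA per cell cannot be told apart.

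**Figure D1:**
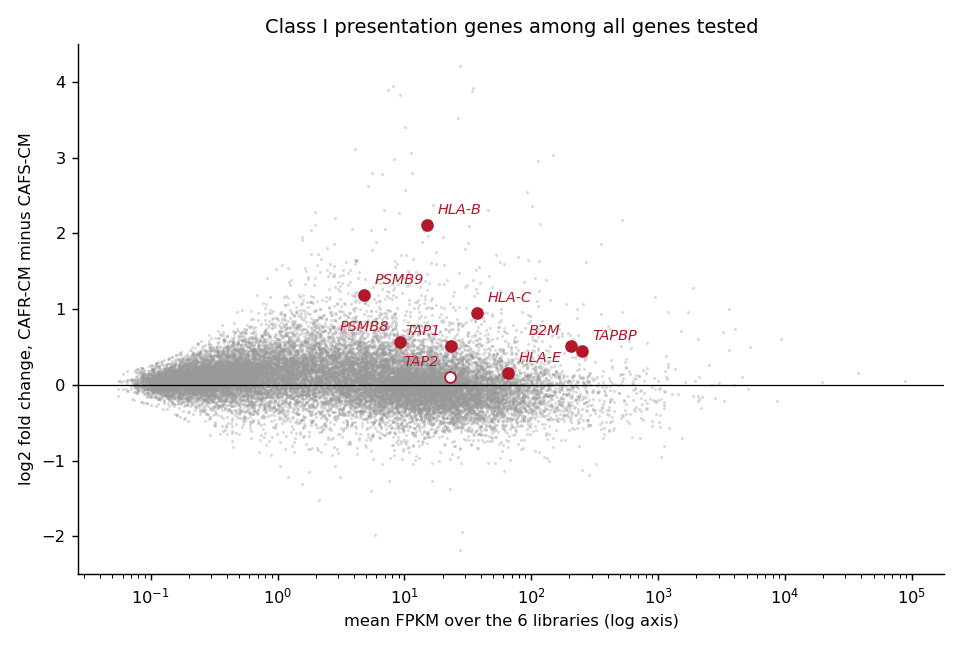
Log2 fold change (CAFR-CM minus CAFS-CM, vertical axis) against mean level over the 6 libraries (horizontal axis) for all 23608 genes tested (gray) and the 9 class I presentation genes (colored, open where not called). All 9 genes sit above 0, with HLA-B at 2.11 and TAP2 at 0.10 as the extremes.

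HLA-B and HLA-C are classical class I heavy chains, which bind peptide and face the T cell receptor. HLA-B was 23.4, 24.3 and 27.3 FPKM in the CAFR-CM libraries, against 5.76, 5.06 and 4.29 FPKM in the CAFS-CM libraries. The groups lay far apart, with a mean of 25.0 ± 2.04 FPKM in CAFR-CM and 5.04 ± 0.735 FPKM in CAFS-CM (SD, n = 3 each), a ratio of 4.96. The log2 fold change was 2.11 (SE 0.10, adjusted p = 4.33e-05), above that of 99.9% of genes tested. HLA-C was 54.0, 44.4 and 50.7 FPKM in the CAFR-CM libraries, against 25.4, 23.0 and 27.5 FPKM in the CAFS-CM libraries. It lay at a higher level than HLA-B and differed less, with a mean of 49.7 ± 4.87 FPKM in CAFR-CM and 25.3 ± 2.29 FPKM in CAFS-CM and a log2 fold change of 0.95 (SE 0.09, adjusted p = 5.70e-04).

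HLA-E, a nonclassical heavy chain that presents leader peptides of other class I chains to the natural killer cell receptor CD94/NKG2A, moved little. It was 70.0, 67.5 and 69.1 FPKM in the CAFR-CM libraries, against 61.5, 58.6 and 65.0 FPKM in the CAFS-CM libraries. The groups did not overlap but were close, and the log2 fold change was 0.16 (SE 0.04, adjusted p = 0.0415). This call was lost without CAFR-CM replicate 1, 2 or 3 or CAFS-CM replicate 1 or 2 (adjusted p = 0.0642 to 0.117), and with equal FPKM totals (0.119), median-of-ratios factors (0.0619), no filter (0.0708) or no mean-variance trend (0.0981). Over all alternatives its adjusted p ran from 0.0105 to 0.119. B2M, the light chain shared by all class I heavy chains, was 248.6, 231.7 and 245.0 FPKM in the CAFR-CM libraries, against 163.4, 178.0 and 164.8 FPKM in the CAFS-CM libraries. It lies on chromosome 15, outside the MHC, and differed by a log2 fold change of 0.52 (SE 0.05, adjusted p = 5.27e-04).

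**Figure D2:**
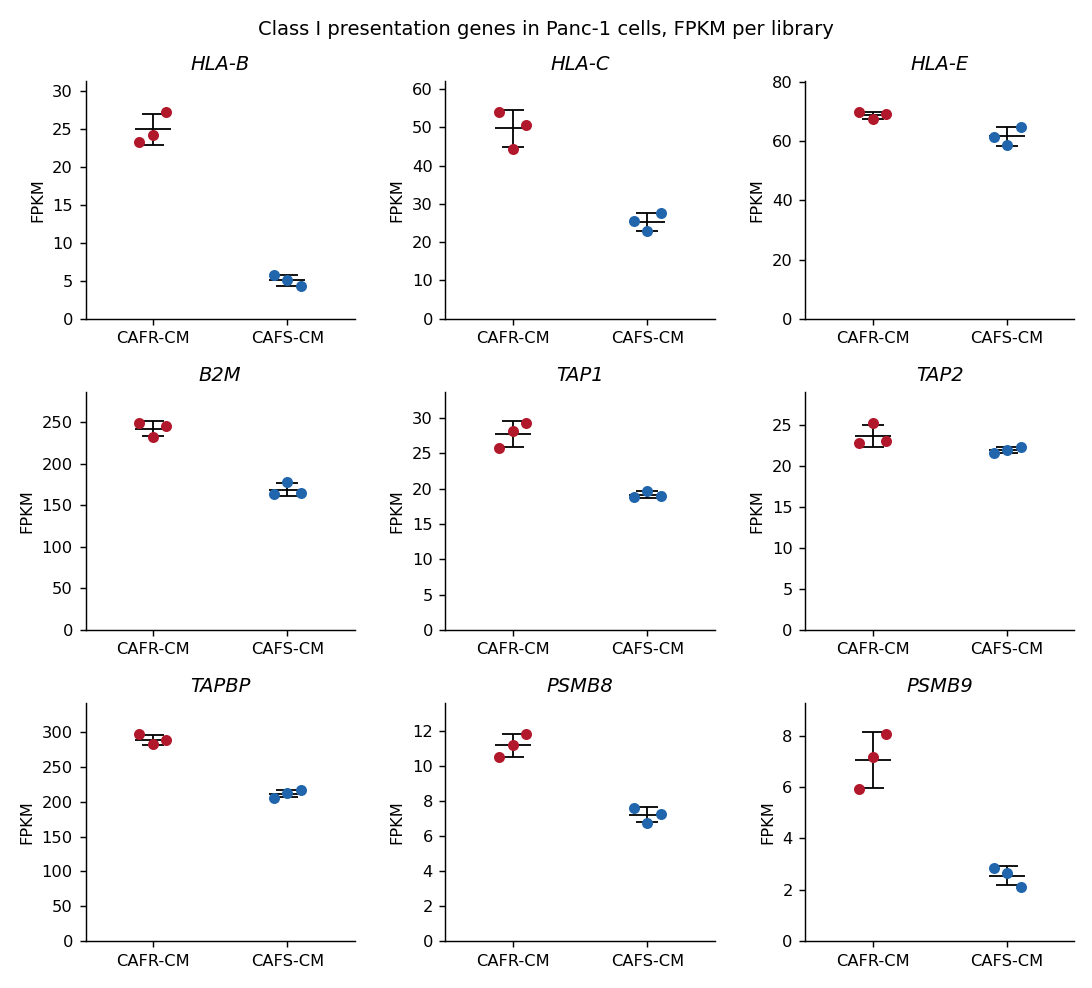
FPKM of each of the 9 genes in each library (points), with the mean and SD (bars), CAFR-CM left of CAFS-CM, n = 3 each. HLA-B averaged 25.0 FPKM in CAFR-CM and 5.04 FPKM in CAFS-CM, while TAP2 averaged 23.7 FPKM in CAFR-CM and 22.0 FPKM in CAFS-CM.

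The order of the heavy chains was the same in both groups, HLA-E above HLA-C above HLA-B, but the distances between them differed. HLA-C was 2.00 ± 0.270 times HLA-B in CAFR-CM libraries and 5.12 ± 1.12 times in CAFS-CM libraries (FPKM ratio within each library, SD, n = 3 each). HLA-E was 2.77 ± 0.230 times HLA-B in CAFR-CM and 12.5 ± 2.37 times in CAFS-CM. The HLA-B to B2M ratio was 0.103 ± 0.00876 in CAFR-CM and 0.0299 ± 0.00479 in CAFS-CM, a log2 difference of 1.80. The HLA-C to B2M ratio was 0.205 ± 0.0128 in CAFR-CM and 0.151 ± 0.0195 in CAFS-CM, a log2 difference of 0.45. All 4 ratios separated the groups in every library, and an exact two-sided permutation test gave p = 0.1 for each, also after adjustment over the 8 ratios computed, which is the smallest p that 3 libraries against 3 allow. Class I genes resemble each other, so reads may be shared between them. In the annotated transcripts, 2.02% of 50-base windows of HLA-B also occurred in HLA-C, with a longest shared run of 66 bases, 0.0672% of HLA-B windows occurred in HLA-E, and 1.74% of HLA-C windows occurred in HLA-E. These are reference sequences and not the alleles of Panc-1, and the part of shared reads in the values of single heavy chains was not tested.

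TAP1 was higher in CAFR-CM while TAP2, its partner in the transporter, was not called. TAP1 was 25.8, 28.2 and 29.3 FPKM in the CAFR-CM libraries, against 18.8, 19.7 and 19.0 FPKM in the CAFS-CM libraries, a log2 fold change of 0.51 (SE 0.05, adjusted p = 9.45e-04). TAP2 was 22.8, 25.3 and 23.0 FPKM in the CAFR-CM libraries, against 21.6, 22.0 and 22.3 FPKM in the CAFS-CM libraries. Those TAP2 libraries did not overlap but nearly touched, and the log2 fold change was 0.10 with a 95% interval of -0.0134 to 0.220 (adjusted p = 0.173, and 0.0540 to 0.436 over the alternatives). The TAP1 to TAP2 ratio was 1.17 ± 0.0859 in CAFR-CM libraries and 0.872 ± 0.0211 in CAFS-CM libraries, so TAP1 was above TAP2 in every CAFR-CM library and below it in every CAFS-CM library. This ratio differed by 0.43 on the log2 scale (exact permutation p = 0.1, the smallest possible). TAPBP, which encodes tapasin, was the gene with the highest level in the set. It was 297.0, 282.6 and 288.5 FPKM in the CAFR-CM libraries, against 206.0, 212.2 and 216.7 FPKM in the CAFS-CM libraries. The log2 fold change was 0.45 (SE 0.04, adjusted p = 3.45e-04).

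Both immunoproteasome subunits were higher in CAFR-CM, at levels far below those of their constitutive counterparts. PSMB8 was 10.5, 11.2 and 11.8 FPKM in the CAFR-CM libraries, against 7.61, 6.76 and 7.29 FPKM in the CAFS-CM libraries, a log2 fold change of 0.57 (SE 0.07, adjusted p = 0.00142). PSMB9 was 5.92, 7.19 and 8.06 FPKM in the CAFR-CM libraries, against 2.86, 2.65 and 2.12 FPKM in the CAFS-CM libraries. Its lowest CAFR-CM library was above its highest CAFS-CM library, and the log2 fold change of 1.18 (SE 0.13, adjusted p = 0.00101) was above that of 99.3% of genes tested. PSMB10, the other inducible catalytic subunit, was 9.94, 9.81 and 10.6 FPKM in the CAFR-CM libraries, against 8.89, 9.53 and 9.51 FPKM in the CAFS-CM libraries, and was not called (log2 fold change 0.11, adjusted p = 0.208).

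The constitutive catalytic subunits that these proteins replace had negative log2 fold changes, and PSMB6 was called lower under all 14 alternatives. PSMB5, the counterpart of PSMB8, averaged 74.1 ± 3.81 FPKM in CAFR-CM and 88.1 ± 2.34 FPKM in CAFS-CM (log2 fold change -0.25, adjusted p = 0.00894). PSMB6, the counterpart of PSMB9, averaged 129.0 ± 4.23 FPKM in CAFR-CM and 161.6 ± 6.67 FPKM in CAFS-CM (log2 fold change -0.32, adjusted p = 0.00238). PSMB7, the counterpart of PSMB10, had a log2 fold change of -0.14 (adjusted p = 0.0308). The PSMB7 call was lost without CAFR-CM replicate 1 or 3, or any 1 CAFS-CM replicate (adjusted p = 0.0630 to 0.103), with equal FPKM totals (0.0692) and with no mean-variance trend (0.0942). Under cyclic loess scaling the log2 fold changes were -0.15 for PSMB5 (adjusted p = 0.0523), -0.21 for PSMB6 (adjusted p = 0.0104) and -0.044 for PSMB7 (adjusted p = 0.417). PSMB8 was 0.151 ± 0.00518 of PSMB5 in CAFR-CM libraries and 0.0819 ± 0.00286 of it in CAFS-CM libraries, a log2 difference of 0.88. PSMB9 was 0.0549 ± 0.0101 of PSMB6 in CAFR-CM and 0.0157 ± 0.00226 of it in CAFS-CM, a log2 difference of 1.80. The PSMB10 to PSMB7 ratio was 0.120 ± 0.00732 in CAFR-CM and 0.0995 ± 0.00323 in CAFS-CM. All 3 ratios were higher in every CAFR-CM library (exact permutation p = 0.1 each, the smallest possible), and in all 6 libraries each inducible transcript was below its constitutive counterpart.

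**Figure D3:**
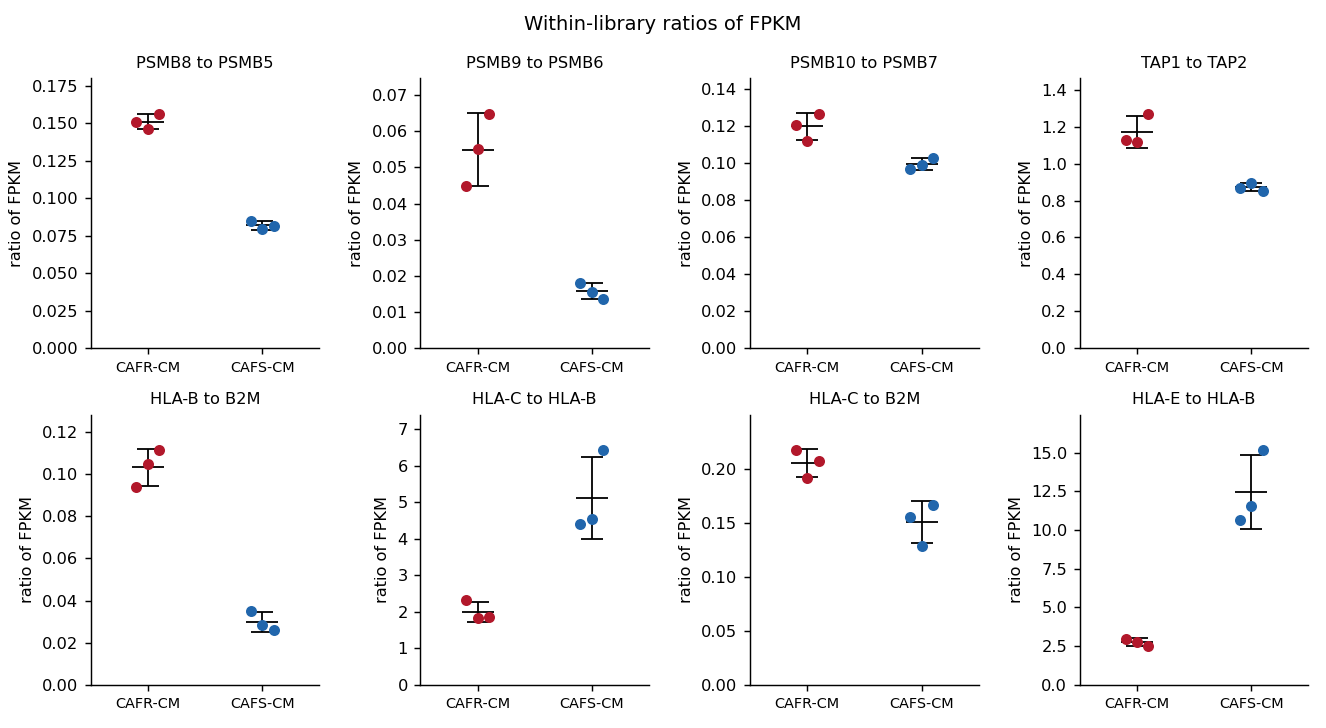
FPKM ratios of paired genes within each library (points, vertical axes start at 0), with the mean and SD (bars), CAFR-CM left of CAFS-CM, n = 3 each. The 2 groups separate in all 8 ratios, and the PSMB9 to PSMB6 ratio averaged 0.0549 in CAFR-CM and 0.0157 in CAFS-CM.

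TAP2, PSMB8, TAP1 and PSMB9 are consecutive genes on chromosome 6 (RefSeq, GRCh38.p14), at chr6:32821831-32838739, chr6:32840717-32844679, chr6:32845209-32853704 and chr6:32854192-32859851. Gaps of 1977, 529 and 487 bases separate them, and the last is the distance between the divergent start sites of TAP1 and PSMB9. The interferon-type and NF-κB-type letters of the printed TAP1 window lie in that shared interval. From PSMB9 to TAP2 the log2 fold changes were 1.18 for PSMB9, 0.51 for TAP1, 0.57 for PSMB8 and 0.10 for TAP2, so neighbors within this stretch did not change by equal amounts. PSMB8-AS1, an antisense RNA that overlaps PSMB8 by 594 bases and TAP1 by 1292 bases, was at 0.01 to 0.07 FPKM over the 6 libraries. TAPBP (chr6:33299694-33314078) overlaps RGL2 by 1919 bases on the same strand. RGL2 had a log2 fold change of 0.09 (adjusted p = 0.295). Its other neighbors were PFDN6, with a log2 fold change of -0.26 (adjusted p = 0.0464), and ZBTB22, with -0.02. The PFDN6 call was lost without any 1 CAFS-CM replicate (adjusted p = 0.0801 to 0.135). Near HLA-B (chr6:31353875-31357179), the noncoding RNA LOC112267902, 45280 bases away, had a log2 fold change of 0.81 (adjusted p = 0.0366), and its call was lost without CAFR-CM replicate 2 or 3 or CAFS-CM replicate 1 or 2 (adjusted p = 0.0569 to 0.103). PATL2, 126 bases from B2M (chr15:44711517-44718145), was at 0.05 to 0.29 FPKM.

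Other genes of the pathway were called in both directions. The counts below stand beside 15.1% of all genes tested higher and 11.1% lower. Among genes with a mean of at least 1 FPKM, these shares were 21.9% and 19.1%. HLA-F, a nonclassical heavy chain, was 1.49, 1.59 and 1.89 FPKM in the CAFR-CM libraries, against 0.72, 0.91 and 0.69 FPKM in the CAFS-CM libraries (log2 fold change 0.58, adjusted p = 0.00627), and HLA-G was too low to test. Of 9 genes of peptide loading and trimming in the endoplasmic reticulum, 3 were higher, 2 were lower and 4 were not called, with a median log2 fold change of -0.04. The aminopeptidases ERAP1 (0.45) and ERAP2 (0.42), which trim peptides, and the tapasin-related TAPBPL (0.45) were higher. The lectin chaperones CALR (-0.22) and CANX (-0.20) were lower. CALR averaged 497.3 ± 9.64 FPKM in CAFR-CM and 578.2 ± 4.51 FPKM in CAFS-CM. Without CAFS-CM replicate 1, 2 or 3 the number higher was 1, 0 and 0 in that order, the number lower was 1 without CAFS-CM replicate 2 or 3, and under cyclic loess scaling it was 0.

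Of 5 proteasome activator and other immunoproteasome genes, 1 was higher, 1 was lower and 3 were not called. Shares over all genes tested were 15.1% higher and 11.1% lower, or 21.9% and 19.1% at a mean of at least 1 FPKM. PSME1, the alpha subunit of the PA28 activator, was 34.9, 32.4 and 32.8 FPKM in the CAFR-CM libraries, against 22.5, 22.3 and 21.3 FPKM in the CAFS-CM libraries (log2 fold change 0.58, adjusted p = 2.77e-04). Its partner PSME2, the beta subunit, had overlapping groups and a log2 fold change of -0.03 (adjusted p = 0.782). PSME3, the nuclear PA28 gamma, was lower (log2 fold change -0.43, adjusted p = 0.00166), and POMP, a proteasome assembly factor, had a log2 fold change of -0.19 (adjusted p = 0.0641). Without CAFR-CM replicate 2 the number lower was 2. Of 14 constitutive 20S proteasome genes, 2 were higher, 5 were lower and 7 were not called, with a median log2 fold change of -0.11. PSMA6 (0.42) and PSMA4 (0.17) were higher, and PSMA7 (-0.32), PSMB3 (-0.34), PSMB5, PSMB6 and PSMB7 were lower. The number higher was 1 without any 1 of the libraries other than CAFS-CM replicate 3, and the number lower was 3 under cyclic loess scaling.

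**Figure D4:**
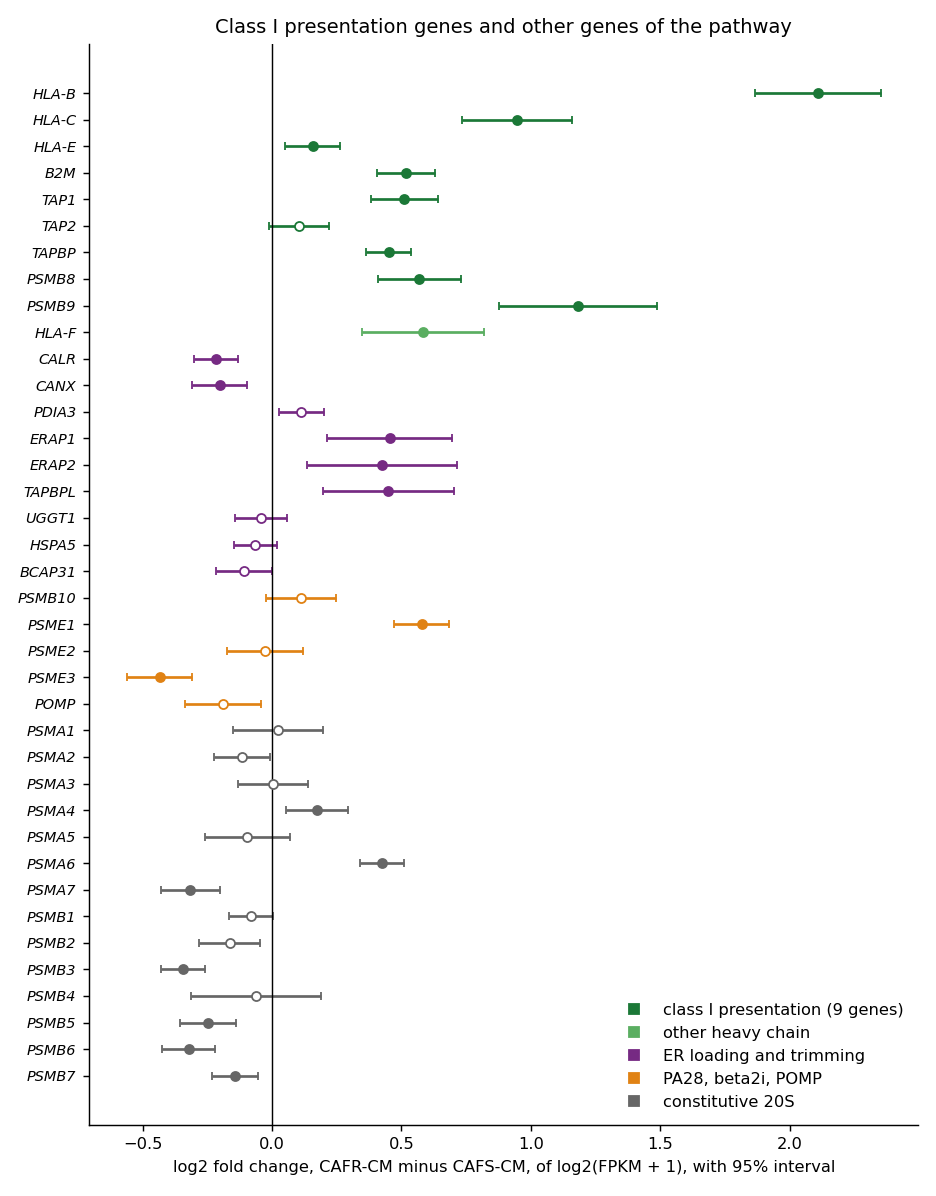
Log2 fold change (CAFR-CM minus CAFS-CM, limma, horizontal axis) with its 95% interval for the 9 genes and for tested genes of 4 related lists, 1 row a gene, colored by role, with open markers for genes not called. The 9 genes have a median of 0.52 and the constitutive 20S genes a median of -0.11.

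Among 27 regulators of class I transcription, 9 were higher, 2 were lower and 16 were not called, with a median log2 fold change of 0.08. Shares over all genes tested were 15.1% higher and 11.1% lower, or 21.9% and 19.1% at a mean of at least 1 FPKM. IRF1, an interferon-induced activator that binds interferon response elements, was 23.8, 22.8 and 21.1 FPKM in the CAFR-CM libraries, against 9.52, 9.62 and 10.4 FPKM in the CAFS-CM libraries. The log2 fold change was 1.12 (SE 0.06, adjusted p = 7.18e-05). SOCS1, a feedback inhibitor of JAK-STAT signaling, was 6.05, 5.79 and 5.31 FPKM in the CAFR-CM libraries, against 2.03, 2.01 and 1.84 FPKM in the CAFS-CM libraries (log2 fold change 1.18, adjusted p = 1.61e-04). The NF-κB subunits RELB (1.07, adjusted p = 1.43e-04) and NFKB2 (0.65, adjusted p = 1.63e-04) were higher, while RELA had a log2 fold change of -0.11 (adjusted p = 0.0748). NLRC5, the class I transactivator, was 1.22, 1.19 and 1.83 FPKM in the CAFR-CM libraries, against 0.88, 0.87 and 0.86 FPKM in the CAFS-CM libraries, and missed the threshold (log2 fold change 0.36, adjusted p = 0.0683). NFYC (-0.29), a subunit of the factor that binds the CCAAT box, and STAT2 (-0.22) were lower. That number of lower genes was 1 without CAFR-CM replicate 2 and without CAFS-CM replicate 1 or 2.

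The mean profile of the 9 genes, each as log2(FPKM + 1) centered on its mean over the 6 libraries, was compared with those of 14285 other protein-coding genes. The nearest by Euclidean distance were PARP3 (distance 0.0616), PAM (0.0640), MANBA (0.0652), IDH2 (0.0721) and GRB10 (0.0734). Their log2 fold changes were 0.71, 0.73, 0.73, 0.76 and 0.76 in that order, against a mean of 0.73 over the 9 genes. This likeness rests on 6 libraries of 2 groups, and it is a description with no test.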

How the data were processed

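RNA from 6 Panc-1 samples was depleted of ribosomal RNA and made into strand-marked libraries. Per the study's methods and the submitters' processing notes, the authors filtered the reads, aligned them with HISAT2 2.0.4 and Bowtie2 2.2.5 against GRCh38.p13 and estimated expression with RSEM 1.2.12, and DESeq2 1.4.5 is named for their own comparison. The sources used here name neither the gene annotation nor the strand setting. The deposited table holds FPKM per gene, rounded by the authors, and no counts or depth, so no count model was used. Columns of per-sample values not used numbered 0.

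Genes above 0.1 FPKM in at least 3 libraries were tested with limma 3.58.1 (R 4.3.3, empirical Bayes with a mean-variance trend) on log2(FPKM + 1), so fold changes of low genes are understated, and p-values were adjusted by Benjamini-Hochberg over 23608 genes. A gene was called at an adjusted p under 0.05. The code was tested on simulated data. Within-library FPKM ratios were compared by exact two-sided permutation (scipy 1.17.1), and figures were drawn with matplotlib 3.10.9. Groups and replicate numbers came from the sample titles. Alternatives were the pseudocount, the filter, scaling, the trend, a replicate block, a fold limit and leaving out each library.

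The genes, lists and patterns were chosen with earlier results of these data known. Named were the 9 genes, in each other list the 4 genes with the smallest adjusted p, PSMB5, PSMB6, PSMB7, PSMB10, NLRC5, IRF1, annotated neighbors, and the 5 nearest profiles, and 1 gene that this rule names is not reported here. Apart from the genes listed next, uncalled genes of the marker and class II lists are given only in counts. KRT7, KRT8, EPCAM, PTPRC, CD68, FAP, COL1A2, COL3A1, DCN, PDGFRA, PDGFRB, LUM, THY1, POSTN, HLA-G, ERAP2, PSME2, PSMA4, RELA, NFYC, STAT2 and MICA lie outside the naming rule and were chosen after their values were seen.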

Additional observations from a re-analysis of the deposited data

How the results depend on the processing

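The number of the 9 genes higher in CAFR-CM was 7 or 8 under 14 alternatives, which include leaving out each library in turn (7 to 8), and the gene that dropped out was HLA-E. With a limit of 1 on the log2 fold change it was 2, HLA-B and PSMB9, where 1.12% of all genes tested were higher. The number lower was 0 throughout. On log2(FPKM + 1), the ratio differences were 0.82 for PSMB8 to PSMB5, 1.50 for PSMB9 to PSMB6 and 1.59 for HLA-B to B2M. Left-out libraries moved them over 0.86 to 0.91, 1.67 to 1.94 and 1.70 to 1.92. No direction reversed under any alternative run. The 7 other presentation lists had these numbers tested: 1 other heavy chain, 9 loading and trimming genes, 5 activator and immunoproteasome genes and 14 constitutive 20S genes. The rest were 27 regulators, 11 class I-like genes and 4 class II genes. Over these lists, 21 genes were higher (15 to 21 over the alternatives) and 12 were lower (8 to 15). Among all genes tested, 15.1% were higher (7.43% to 21.9% over the alternatives) and 11.1% were lower (5.9% to 19.1%).

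Deviations from the group mean had correlations of 0.0198, -0.0285 and 0.0621 between same-numbered libraries. Between differently numbered libraries they ran from -0.0871 to 0.0666. The labels do not say whether the numbers pair libraries, and correlations this small cannot settle it. With a replicate block, 8 of the 9 genes were higher, as without it, and 2891 of all genes tested were higher instead of 3560 and 2340 were lower instead of 2626. A test on counts could not be made from FPKM. Depth is unknown, values are rounded to 2 decimals, and 1 CAF line stands behind each group.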

Other observations

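Of 13 class I-like molecules and stress ligands, 11 were tested, and 3 were higher and 2 were lower in CAFR-CM, with a median log2 fold change of 0.16. Over all genes tested, 15.1% were higher and 11.1% were lower. ULBP1, a ligand of the activating natural killer cell receptor NKG2D, was 4.21, 4.58 and 4.46 FPKM in the CAFR-CM libraries, against 0.72, 0.81 and 0.84 FPKM in the CAFS-CM libraries. Its log2 fold change was 1.60 (adjusted p = 5.65e-05, limma). MICB, another NKG2D ligand, was 33.1, 36.9 and 34.2 FPKM in the CAFR-CM libraries, against 52.9, 51.9 and 54.4 FPKM in the CAFS-CM libraries (log2 fold change -0.60, adjusted p = 3.06e-04), and MICA was lower as well (-0.32). Ligands of the same receptor thus differed in direction. HFE (0.53), which controls iron uptake and pairs with B2M, and FCGRT (0.59), the heavy chain of the neonatal Fc receptor, which also pairs with B2M, were higher.

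Class II presentation was near the detection limit, with 4 of 13 genes tested and 3 listed at 0 in all libraries. Of the 4 tested, 2 were higher in CAFR-CM and 0 were lower, beside 15.1% of all genes tested higher and 11.1% lower. CD74, the invariant chain, was 1.35, 0.82 and 2.12 FPKM in the CAFR-CM libraries, against 0.19, 0.24 and 0.09 FPKM in the CAFS-CM libraries (log2 fold change 1.02, adjusted p = 0.00884). CTSS, a protease that cuts it, was 0.29, 0.29 and 0.21 FPKM in the CAFR-CM libraries, against 0.09, 0.02 and 0.01 FPKM in the CAFS-CM libraries. CTSS passed the filter on low values only through its CAFR-CM libraries, and it was not tested when any 1 of them was left out. Its call as higher was lost without CAFS-CM replicate 2 or 3 (limma, adjusted p = 0.0701 and 0.0724) and under cyclic loess scaling (0.0671). The number higher was 1 without CAFR-CM replicate 2 or 3 and without CAFS-CM replicate 2 or 3. It was also 1 under cyclic loess scaling, and 0 with the filter at a mean of at least 1 FPKM.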
